A study of Mus musculus with 3 samples.

Results

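The genes described here are those of the apelin and renin-angiotensin systems: Apln and its receptor Aplnr, the precursor Agt, the enzymes Ace and Enpep, the receptors Agtr1a, Agtr1b and Agtr2, and Atp6ap2, the (pro)renin receptor. A gene was included when a probe set of the array named it and no other gene. This held for 8 of the 9 listed genes, among 19938 genes measured in that way, and each of the 8 had a single probe set. Agtr1b had no such probe set and was not analysed here. All samples came from 1 group, with no other compartment beside it. These were endothelial cells of the renal medulla of adult (TS28) male FVB/N mice that carried the transgene Tg(TIE2GFP)287Sato, which places green fluorescent protein under the Tie2 promoter. The cells were released with collagenase and sorted by fluorescence. Each of the 3 arrays, called replicates 1 to 3, was hybridised with RNA from a pool of 2 kidneys. The Tie2 promoter is also known to be active in some blood cells, so the sort is a marker of the endothelium and not of a single vessel type.

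Angiotensinogen, the product of Agt, is cut by renin to angiotensin I, and the angiotensin-converting enzyme Ace turns this into angiotensin II, which narrows vessels through the AT1 receptors. The aminopeptidase A encoded by Enpep removes the first residue of angiotensin II. Apelin acts through the receptor APJ, encoded by Aplnr, a G protein-coupled receptor related in sequence to the AT1 receptor, and generally opposes the pressor effect of angiotensin II. In the medulla both systems bear on blood flow through the vasa recta.

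The values are log2 expression levels, here also turned into units (2 raised to the log2 level). Each gene was set against a pair of limits. The first was 100 units (log2 6.64), the raw level below which the study discarded probe sets. No source says whether the deposited levels share the scale of that raw level. The second was a background limit of 247 units (log2 7.95), the level under which 95% of the 1247 probe sets for olfactory, vomeronasal and bitter taste receptors lay. These receptors belong mostly to sensory cells. A gene under this limit is not shown to be silent. The 9 endothelial markers, among them Pecam1, Cdh5 and Tek, passed both limits in every array. Array medians differed by at most 0.03 on the log2 scale. Of markers of other cells, 2 of 10 proximal tubule genes, 4 of 6 thick ascending limb genes, 3 of 6 collecting duct genes, 4 of 10 pericyte and smooth muscle genes, 2 of 6 fibroblast genes (Col1a1 at 8.81 and Col3a1 at 8.17, with Dcn under it at 7.26), 2 of 3 juxtaglomerular and mesangial genes and 3 of 8 macrophage and leukocyte genes stood at or above the background limit in all arrays. In such bulk samples, fewer cells of a type and less RNA per cell cannot be told apart.

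The 8 measured genes fell into 3 sets. Aplnr, Enpep and Atp6ap2 lay far above both limits, Apln lay above both by less, and Agt, Ace, Agtr1a and Agtr2 lay near or under the background limit. All 8 stood at 100 units or more in all 3 arrays, as did 85.4% of all genes, and 5 of the 8 stood at or above the background limit, as did 54.9% of all genes. The other 3 were under it in all arrays, as were 42.5% of all genes. By limma with Benjamini-Hochberg adjustment over all genes, all 8 were above 100 units (84.5% of all genes were). At the background limit 5 were above it (52.5% of all genes) and 3 below (41.4% of all genes). With the second prior described below for Apln, all 8 were above 100 units (83.0% of all genes) and so 0 below (12.0% of all genes by limma), 4 above the background limit (49.7%) and 1 below it (37.9%). The median level of the 8 was log2 8.31, against 8.15 over all genes. These shares are near those of all genes and are not a result about the set.

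**Figure D1:**
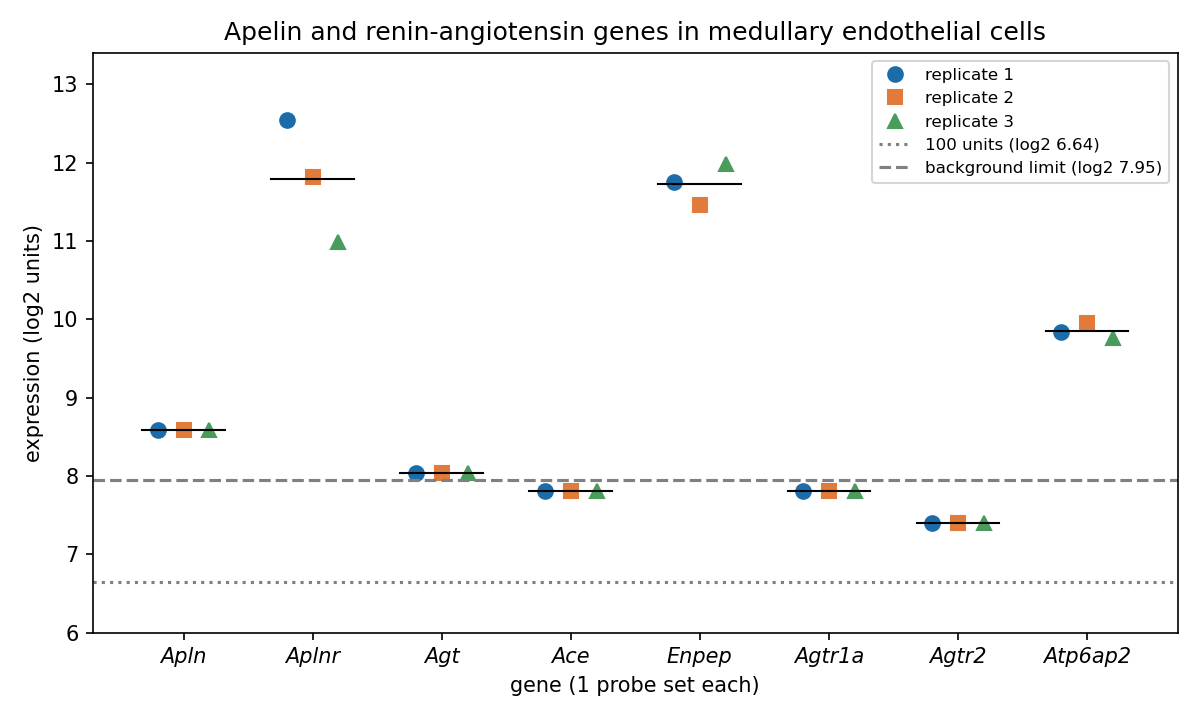
Expression (y axis, log2 units) of the 8 measured genes (x axis), with 1 point per array and the mean of 3 arrays as a bar; dotted and dashed lines mark 100 units (6.64) and the background limit (7.95). Aplnr, Enpep and Atp6ap2 lie far above both lines and differ between arrays, while the other 5 genes have the same value in all arrays.

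The apelin receptor gene Aplnr was strongly expressed and differed widely between the arrays. Its level was 5990 units in replicate 1, 3612 in replicate 2 and 2037 in replicate 3, on the log2 scale 12.55, 11.82 and 10.99. Every array was thus far above the background limit, with replicate 1 the highest and replicate 3 the lowest, 2.94-fold apart. The mean log2 level was 11.79 ± 0.78 (SD, n = 3), which is 3.84 above the background limit (95% interval 2.20 to 5.48, adjusted p = 0.00934 by limma). Without any 1 array the difference remained 3.46 to 4.24, but with only 2 arrays the adjusted p rose to between 0.056 and 0.125 by limma. The study named Aplnr among genes of medullary cells from these same arrays, so its level is not independent evidence. Of all genes, 0.557% (111) had an SD at least as large.

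Other genes differed between the arrays in the order seen for Aplnr. Umod, the Tamm-Horsfall protein of the thick ascending limb, was at log2 11.61 in replicate 1, 10.40 in replicate 2 and 9.49 in replicate 3. Slc12a1, the sodium, potassium and chloride carrier of the same segment, was at 9.68, 8.07 and 7.81. Both were thus highest in replicate 1 and lowest in replicate 3, as Aplnr was. The summed level of the 6 thick ascending limb genes was 5251, 2807 and 2134 units in replicates 1, 2 and 3, and 3 of the 6 were highest in replicate 1, although Kcnj1 and Ptger3 had the same value in all arrays and Cldn16 was lowest in replicate 1. Of the 9 endothelial markers, 8 had a spread and 7 were also highest in replicate 1. Of all genes with a spread, 24.5% were alone highest in replicate 1. These 7 markers had 3 different values, and 4 of them had the full order of Aplnr, against 18.6% of all genes with 3 different values. Cdh5, the cadherin of endothelial junctions, was at 12.92, 12.65 and 12.57. Set against the mean of the 9 endothelial markers of the same array, Aplnr spanned 2.49-fold, with an SD of 0.66 in place of 0.78. On the venous side, where APJ is known to be enriched in developing vessels, the 5 markers did not share 1 order of arrays. Nr2f2 was at log2 9.91 and Plvap at 4107 units in every array, and Ephb4 at 10.43 ± 0.01 (SD, n = 3). Nrp2 was at 10.57, 10.17 and 10.29 in replicates 1, 2 and 3, highest in replicate 1 as Aplnr was, and Vwf at 9.15, 9.30 and 9.33, lowest in replicate 1. On the arterial and descending side, Slc14a1 was at 11.67, 12.08 and 11.84, Aqp1 at 11.31, 12.18 and 11.86, and Efnb2 at 11.04, 10.81 and 10.85. The part of carried-over tubule cells, or of the share of endothelial cells, in the spread of Aplnr was not tested.

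Of 355 other genes with an SD of 0.5 or more, 90 (25.4%) had the same order of arrays as Aplnr. This count can include genes with equal values in some arrays. Of all genes with 3 different values, 18.6% had that order, so the shares do not rest on a like basis. The closest to Aplnr, by the root mean square difference of levels centred on each gene's mean over 3 arrays, were Fv1 (0.03), Thap2 (0.06), Vwa3a (0.07), Zfp958 (0.08) and Sympk (0.10). Fv1 was at log2 9.66, 8.94 and 8.04 in replicates 1, 2 and 3. With only 3 arrays, 54 genes came within 0.25 of the pattern of Aplnr, so likeness of this kind is common.

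**Figure D2:**
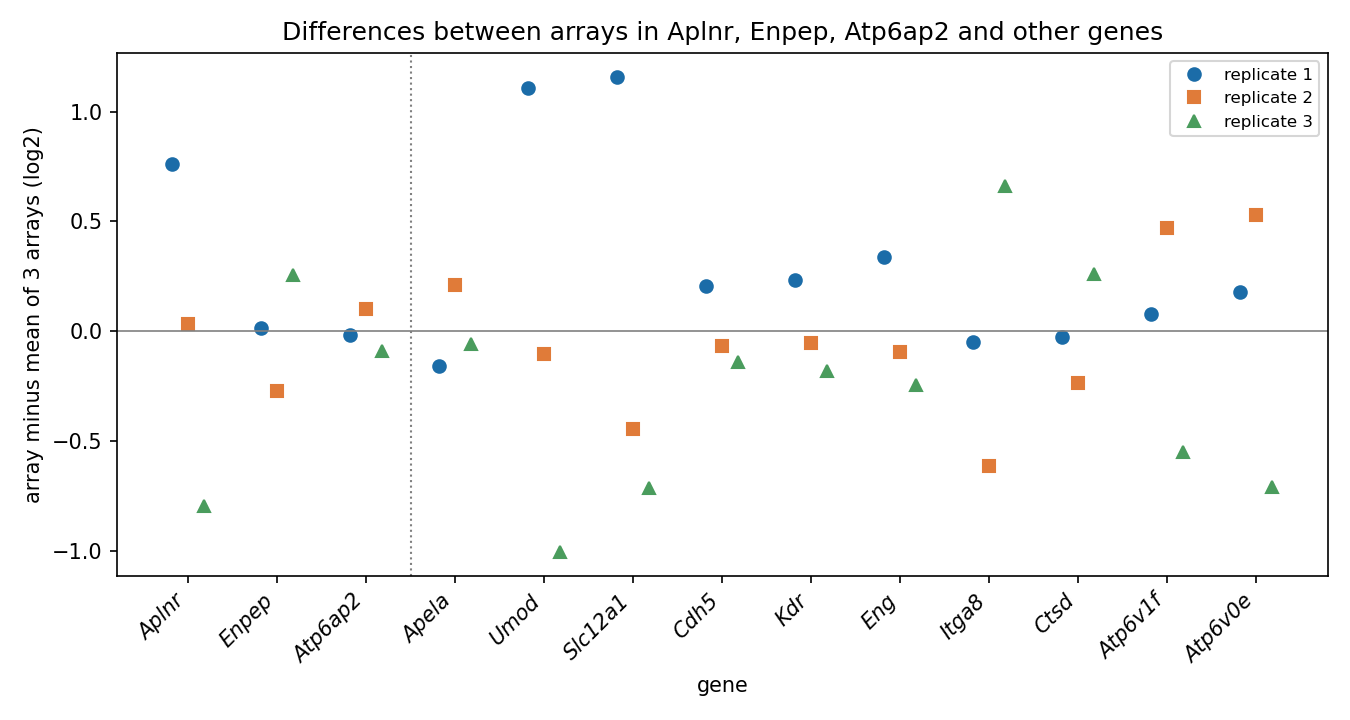
Level in each array minus the mean of 3 arrays (y axis, log2) for Aplnr, Enpep and Atp6ap2 (left of the dotted line) and for 10 other genes (right), chosen after their values were seen, with 1 point per array. Aplnr, Umod and Slc12a1 are highest in replicate 1 and lowest in replicate 3, Enpep, Itga8 and Ctsd highest in replicate 3 and lowest in replicate 2, and Atp6ap2, Atp6v1f and Atp6v0e highest in replicate 2 and lowest in replicate 3.

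The ligand gene Apln was moderately expressed. Its level was 386 units (log2 8.59) in all 3 arrays, which is 0.65 above the background limit and 1.95 above 100 units. Equal values in all arrays leave no measured spread. They were common on these arrays, with 46.3% of all genes and 5 of the 8 genes described here. The standard error that limma gave such genes, 2.0e-05, came from the other genes alone, so a second fit drew its prior variance from the genes with 3 different values alone. Apln remained above the background limit there, by 0.48 to 0.81 (95% interval, adjusted p = 0.000785 by limma). Under a stricter limit, the 99th percentile of the sensory receptors, Apln was 0.13 below it.

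A gene for a further ligand of APJ, Apela, was measured as well. Apela encodes the peptide known as Elabela or Toddler, which acts on APJ in the early embryo of zebrafish and mouse. It was at log2 10.88, 11.25 and 10.98 in replicates 1, 2 and 3, so that every array was far above the background limit and replicate 2 was the highest. The mean of 11.04 ± 0.19 (SD, n = 3) was 3.09 above the limit (adjusted p = 0.000822 by limma). The part of carried-over tubule cells in the level of Apela was not tested. Furin, the protease that processes the apelin precursor, was at 8.98 ± 0.02 and called above the background limit. Mme, neprilysin, which degrades apelin and angiotensin peptides, was at 7.11 ± 0.03 and called below it. Of the 5 other genes listed around apelin, these 3 were measured and the others were not analysed here.

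The precursor gene Agt lay close to the background limit. Its level was 262 units (log2 8.03) in all 3 arrays, 0.09 above the limit. limma called it above, but with the prior from genes with 3 different values it could not be told from the limit (95% interval -0.08 to 0.25, adjusted p = 0.229 by limma). Liver and proximal tubule are known sources of angiotensinogen. The defining proximal tubule markers Lrp2 (log2 7.28) and Cubn (6.30) had the same values in all arrays and were under the background limit, whereas Slc34a1 (8.40) and Slc5a2 (8.41) were above it. The summed level of the 10 proximal tubule genes was 1782 to 1786 units in the 3 arrays.

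The converting enzyme gene Ace, whose protein is known from many endothelia, also lay near the background limit. Its level was 225 units (log2 7.81) in all 3 arrays, 0.13 under the background limit and 1.17 above 100 units. With the prior from genes with 3 different values Ace could not be told from the background limit (95% interval -0.30 to 0.03, adjusted p = 0.0963 by limma). At the 90th percentile of the sensory receptors as the limit, Ace was 0.20 above it. Its level in other compartments was not analysed here.

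Enpep, the aminopeptidase that acts on angiotensin II, was strongly expressed in every array. Its level was 3447 units in replicate 1, 2820 in replicate 2 and 4065 in replicate 3, on the log2 scale 11.75, 11.46 and 11.99. Replicate 3 was the highest and replicate 2 the lowest, 1.44-fold apart, and no array came near the background limit. The mean log2 level of 11.73 ± 0.26 (SD, n = 3) was 3.79 above it (95% interval 3.23 to 4.34, adjusted p = 0.00105 by limma). Enpep belongs to the study's own list of genes higher in medullary cells, so its level is not independent evidence. Of all genes, 7.62% had an SD at least as large.

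Enpep is also known from the brush border of the proximal tubule and from pericytes. Of the 10 pericyte and smooth muscle genes, Pdgfrb (log2 7.56) and Acta2 (7.56) lay under the background limit with the same value in every array, Rgs5 was at 7.72 ± 0.19 (SD, n = 3), and Kcnj8 (8.87), Notch3 (8.51), Cspg4 (8.02 ± 0.02) and Abcc9 (256 units) lay above the limit. With the second prior, Cspg4 and Abcc9 could not be told from the limit (adjusted p = 0.278 and 0.430 by limma). The summed level of the 10 genes was 2596 to 2625 units in the 3 arrays. The integrin gene Itga8, known from mesangial cells, was at 10.03, 9.46 and 10.74 in replicates 1, 2 and 3, the order of arrays seen for Enpep. Of all genes with 3 different values, 14.45% had that order. The summed level of the 3 juxtaglomerular and mesangial genes was 1703, 1340 and 2367 units, while Gata3 of the same list was at 7.25 in all arrays and Meis1 at 8.96 ± 0.04 (SD, n = 3). The part of these cells in the level of Enpep was not tested.

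Neither measured angiotensin II receptor was above the background limit. Agtr1a, which encodes the main AT1 receptor of the mouse, had a level of 223 units (log2 7.80) in all 3 arrays, 0.14 under the background limit. With the prior from genes with 3 different values it could not be told from that limit (95% interval -0.31 to 0.02, adjusted p = 0.0828 by limma). Its near-identical copy Agtr1b was not analysed here, and a probe set for Agtr1a may also take up its transcripts. Agtr2, the AT2 receptor gene best known from fetal tissue, had 168 units (log2 7.39) in all 3 arrays. It was 0.55 under the background limit and was called below it by both fits (adjusted p = 0.00129 by limma with the prior from genes with 3 different values). Both receptors were nevertheless above 100 units, a level that 34.7% of the sensory receptor probe sets also reached in all arrays.

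**Figure D3:**
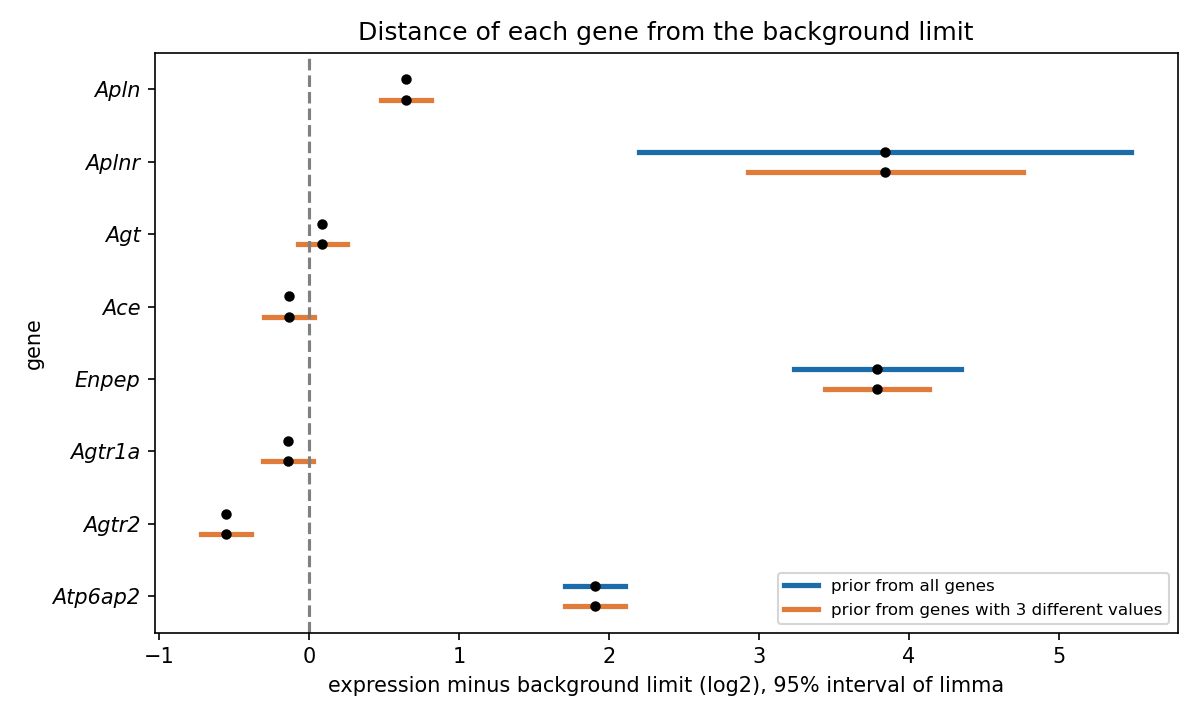
Mean expression minus the background limit (x axis, log2) for the 8 measured genes (y axis), with 95% intervals of limma over 3 arrays for the prior variance from all genes (upper bar) and from genes with 3 different values (lower bar). For Agt, Ace and Agtr1a the lower bar reaches across 0, and for the 5 genes without spread the upper bar is narrower than the point.

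Atp6ap2, the (pro)renin receptor, was well expressed in every array. It is also an accessory subunit of the vacuolar proton pump (V-ATPase). Its level was 915 units in replicate 1, 992 in replicate 2 and 869 in replicate 3, on the log2 scale 9.84, 9.95 and 9.76. Replicate 2 was the highest and replicate 3 the lowest, but the arrays were within 1.14-fold of each other. The mean of 9.85 ± 0.10 (SD, n = 3) was 1.91 above the background limit (95% interval 1.70 to 2.11, adjusted p = 0.000536 by limma). Of all genes, 23.2% had an SD at least as large.

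Most measured proton pump genes were expressed beside Atp6ap2. All 13 measured genes of the V-ATPase list were above the background limit by limma (52.5% of all genes were). Their median log2 level was 10.35, against 8.15 over all genes. Other pump genes, listed here as collecting duct markers, were not called above the limit. Atp6v1g3 (7.67 ± 0.27, SD, n = 3) could not be told from it (adjusted p = 0.188 by limma), and Atp6v0d2 (6.10 ± 0.03) was called below it. The accessory subunit gene Atp6ap1 was at 11.03 ± 0.16 (SD, n = 3), Atp6v1a of the catalytic part at 9.97 ± 0.07, Atp6v1c1 at 9.85 ± 0.08, and Atp6v1b2, also of that part, at 8.93 ± 0.31. Of the 8 genes of the V-ATPase list with 3 different values, 6 were highest in replicate 2 and lowest in replicate 3. This was the order of Atp6ap2, and 16.5% of all genes with 3 different values had it. The list held 12 genes with a spread, of which 6 were alone highest in replicate 2 and 4 alone lowest there. Of all genes with a spread, 23.2% were alone highest and 21.5% alone lowest in replicate 2. Atp6ap1 was highest in replicate 1, at 11.22, 10.96 and 10.92 in replicates 1, 2 and 3. Atp6v0e of the membrane part was at 11.46, 11.81 and 10.57 in replicates 1, 2 and 3, and Atp6v1f at 10.95, 11.34 and 10.33, with replicate 3 the lowest in both. The genes share the same 3 arrays and are not independent. The summed level of the macrophage and leukocyte genes was also highest in replicate 2, at 3056, 5795 and 3472 units in replicates 1, 2 and 3, but most of that sum came from 2 genes of antigen presentation by MHC class II, which were highest in replicate 2. Cd74 was at 9.27, 10.93 and 9.53, and H2-Aa at 10.49, 11.45 and 10.75. Ptprc (6.68), Adgre1 (6.18), C1qa (7.91) and Cd68 (7.99) each had 1 value in all arrays. Csf1r was at 7.54, 7.55 and 7.54, and of these 5 only Cd68 was above the background limit. With the second prior, Cd68 could not be told from that limit (adjusted p = 0.489 by limma). Lyz2, under that limit, was at 7.15, 7.63 and 7.28. All 4 genes of the list with a spread were highest in replicate 2, against 23.2% of all genes with a spread. The summed level of the collecting duct genes was 1945, 1912 and 1677 units, lowest in replicate 3. Of these, Aqp2 was at 9.67, 9.67 and 9.27, Aqp3 at 8.55 ± 0.01 (SD, n = 3) and Avpr2 at 8.50 in all arrays. The part of these cells in the order of the arrays was not tested.

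Short stretches before the start of Apln, Enpep and Atp6ap2 are shown because these genes passed both limits in both fits. The study reported ETS sites, among others, as enriched in promoters of genes raised in embryonic kidney endothelium over other embryonic compartments. It did not report this for the adult medullary cells described here. They are RefSeq sequences, build GRCm38.p6, from a table that held a promoter window for 7 of the 9 genes, not Aplnr and Agtr1a. Each is the 120 bases that end at the transcription start, 5′ to 3′ on the gene's strand, with capitals for the letters TTCCTG (a core of ETS sites) or ACGTG (a core of hypoxia response elements), searched on both strands. The letters of these motifs do not overlap each other in the stretches shown. An ETS site named by the study was RYTTCCTG (R for A or G, Y for C or T), taken where conserved in evolution. The search here used TTCCTG alone, without conservation, so the motifs are unlike.
Apln (chrX:48034854-48034973, minus strand): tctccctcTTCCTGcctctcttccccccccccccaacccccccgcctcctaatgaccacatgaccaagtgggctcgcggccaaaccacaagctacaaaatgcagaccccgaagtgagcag
Enpep (chr3:129332750-129332869, minus strand): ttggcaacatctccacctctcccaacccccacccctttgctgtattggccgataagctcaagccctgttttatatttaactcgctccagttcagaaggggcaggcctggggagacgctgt
Atp6ap2 (chrX:12587639-12587758, plus strand): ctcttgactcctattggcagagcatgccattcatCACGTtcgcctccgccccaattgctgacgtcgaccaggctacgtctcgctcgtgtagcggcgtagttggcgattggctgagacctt
Apln held the ETS letters once and Atp6ap2 the hypoxia letters once, on the opposite strand, while Enpep held neither. Among the others, Agt held the ETS letters as well. Of 32851 promoter windows, 13.5% held the ETS letters and 9.41% the hypoxia letters in the same 120 bases. A match describes the sequence and shows no bound factor.

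Of 18 other enzymes that make or break angiotensin peptides, 14 were measured, 8 were called above the background limit and 6 below by limma. These shares are near those of all genes, of which 52.5% were called above and 41.4% below. Their median log2 level was 8.32, against 8.15 over all genes. Prcp, which cleaves angiotensin II at its carboxyl end, was at 9.11 ± 0.02 (SD, n = 3), Prep at 9.35 ± 0.17, Rnpep at 8.88 and Nln at 8.86 ± 0.01. The lysosomal proteases Ctsd (11.22 ± 0.25) and Ctsb (10.24 ± 0.25), which can act on angiotensinogen and prorenin in vitro, also lay above. Mme, Anpep (6.95, aminopeptidase N), the mast cell chymases Cma1 (7.08) and Mcpt4 (6.06), the mast cell carboxypeptidase Cpa3 (6.16) and Ctsg (6.88) lay below. Thop1 (8.09 ± 0.05), called above, could not be told from the limit with the prior from genes with 3 different values (adjusted p = 0.0899 by limma). Ren1, Ren2 and Lnpep had no probe set naming them alone and were not analysed here, so no value for renin is given.

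Other receptors and regulators of angiotensin lay on both sides of the background limit. Mas1, the receptor for angiotensin 1-7, was at log2 7.33 in all arrays and was called below the background limit. Mrgprd, another receptor of angiotensin fragments, was at 7.98, 7.98 and 8.05, which could not be told from the limit (adjusted p = 0.122 by limma). Agtrap, a protein that binds the AT1 receptor and promotes its uptake, was at 8.35 ± 0.17 (SD, n = 3), Mtus1, a partner of the AT2 receptor, at 9.73 ± 0.08, and Rgs2, which dampens signaling by Gq proteins, at 10.68 ± 0.03. All 3 were called above. Of the 7 genes, 5 were called above the limit (52.5% of all genes) and 1 below (41.4%), with a median of 8.62, against 8.15 over all genes.

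G proteins that couple to APJ and to the AT1 receptors lay above the background limit. Of 13 measured genes, 11 were called above the background limit (52.5% of all genes) and 1, Grk6 (7.81), below, a call lost with the second prior (adjusted p = 0.0966 by limma). Their median was 9.60, against 8.15 over all genes. Gna12 (9.08) and Gna13 (10.83) were above the limit. Gnaq (10.58) and Gna11 (10.99 ± 0.28, SD, n = 3) encode the Gq family subunits used by the AT1 receptor, and Gnai2 (12.20 ± 0.07) and Gnai3 (11.19 ± 0.18) the Gi subunits used by APJ. Of the arrestins, which end receptor signaling, Arrb1 was at 8.47, 8.94 and 9.07 in replicates 1, 2 and 3, lowest in replicate 1, and Arrb2 at 7.94 ± 0.04 could not be told from the limit (adjusted p = 0.905 by limma). Nos3, the endothelial nitric oxide synthase that apelin is known to activate, was at 9.02 in all arrays.

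Kinin and mineralocorticoid genes are read against all genes, of which 52.5% were called above the background limit and 41.4% below. Of 6 measured kallikrein-kinin genes, the kinin B1 receptor Bdkrb1 (log2 8.20) was called above the background limit, and Kng1 (6.24 ± 0.02, SD, n = 3), Cpn1 (6.95) and Xpnpep2 (7.53) below it, with a median of 7.73. The B2 receptor Bdkrb2 (7.94 ± 0.10) and the kininogen Kng2 (7.99 ± 0.35) could not be told from the limit. Kng2 was at 8.21, 8.17 and 7.58 in replicates 1, 2 and 3, lowest in replicate 3. Of the 6 mineralocorticoid genes, 4 were called above and 2 below, near the shares of all genes. The receptor gene Nr3c2 was at 8.89 ± 0.07, the glucocorticoid receptor gene Nr3c1 at 10.58, Hsd11b2, which inactivates glucocorticoids, at 8.25, and the aldosterone target Sgk1 at 10.04 ± 0.25, with 10.31 in replicate 1, 9.96 in replicate 2 and 9.84 in replicate 3. The adrenal enzymes Cyp11b1 (7.65) and Cyp11b2 (7.84) were called below, although for Cyp11b2 the call was lost with the prior from genes with 3 different values (adjusted p = 0.169 by limma). Over all 7 lists, with each gene counted once, 61 of 69 genes were measured, 44 were called above the background limit (52.5% of all genes) and 13 below (41.4% of all genes).

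**Figure D4:**
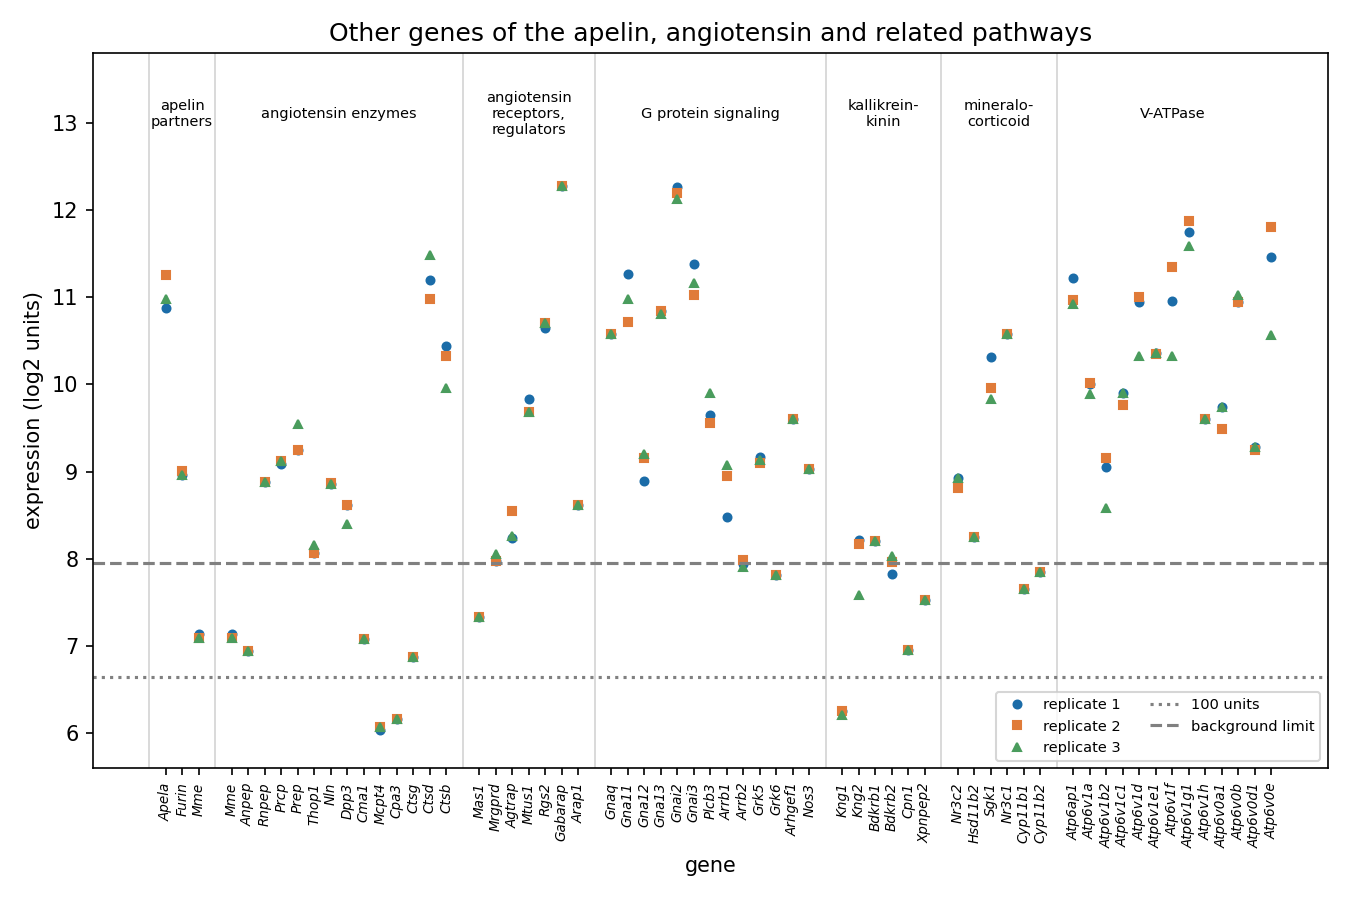
Expression (y axis, log2 units) of the measured genes of 7 lists around apelin and angiotensin (x axis, Mme in 2 lists), with 1 point per array; dotted and dashed lines mark 100 units and the background limit. All genes of the V-ATPase list lie above the dashed line, whereas the mast cell enzymes Mcpt4 and Cpa3 and the kininogen gene Kng1 lie under 100 units.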

How the data were processed

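RNA of sorted cells was amplified in 1 round with a NuGEN Ovation Pico kit, labelled with biotin and hybridised to Affymetrix Mouse Gene 1.0 ST arrays. The authors deposited log2 levels per probe set, made in Affymetrix Expression Console. Robust multi-array averaging (RMA) is named for the study's own analysis, which ran in GeneSpring, and was taken to hold for the deposited values too. The median polish of RMA can return 1 value for all of 3 arrays, so a spread of 0 is no absence of error. No source used here says which arrays were normalized together. The log2 scale rests on the values, which ran between 3.55 and 14.4. Of 35557 probe sets, 21789 named 1 gene, with symbols updated by Entrez identifier to RefSeq (GRCm38.p6). For genes with several probe sets, the one with the highest mean was kept.

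Levels minus a limit were tested with an intercept-only limma model (eBayes, two-sided, Benjamini-Hochberg over 19938 genes, threshold 0.05). The model was also run on simulated data. That run is not taken as a check of the calls for genes whose SD was 0. The study describes at least 3 independent biological samples per cell type, but the labels do not say that the pools came from separate animals. For genes with a spread, the p-values rest on the spread between these arrays and on the prior variance. For genes whose SD was 0, the p-values rest on the prior variance from other genes alone. In each fit the limit was taken as a fixed value. The number of arrays limits the precision. Between any 2 arrays, 41.8% to 45.2% of genes differed. The members, lists and rule for named genes were chosen with earlier results of these data known. The rule took every member, at least the first 4 measured genes of each pathway list, the first 3 of a marker list and any across the background limit from most of it, and the 5 genes closest in pattern to a member with an SD of 0.5 or more. Any other marker gene named or plotted was chosen after its values were seen. Alternatives were other limits, priors, probe set choices, normalization and leaving out each array. Software was limma 3.58.1 in R 4.3.3, and pandas 2.3.3 in Python 3.11.15.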

Additional observations from a re-analysis of the deposited data

How the results depend on the processing

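Of 61 recomputed counts of genes above, below or at a limit or with a spread, 54 stayed within 1.5 times the value reported. With the prior variance from genes with 3 different values, 1 gene was called below the background limit in place of 3, Agtr2. With the 90th percentile of the sensory receptors as the limit the count was also 1, and Ace and Agtr1a turned from below to above the limit (by 0.20 and 0.19 on the log2 scale). With the 99th percentile 5 genes were called below, 3 were called above and 3 stood at the limit in all arrays. Apln and Agt then turned from above to below it (differences of -0.13 and -0.69). At 200 units 1 gene was called below, Agtr2, at -0.25. After quantile normalization all 8 genes had an SD above 0, at 0.011 to 0.0146 for the 5 genes without spread in the deposited values. The cause of this difference was not tested. Of 160 recomputed differences of single genes from a limit, 147 kept their direction and side of the threshold, 8 fell short of it and 5 reversed. Leaving out each array in turn left 8 genes called above 100 units only when replicate 3 was the one left out and 7 otherwise, Aplnr being lost (adjusted p = 0.0510 without replicate 1 and 0.0882 without replicate 2 by limma). Above the background limit 4 were called in each case. The spread of Aplnr relative to the endothelial markers was chosen after seeing the data. No paired analysis was possible because all arrays belong to 1 group. Depth is not defined for arrays, and calls of probes over background were not used here.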
